A study of Mus musculus with 6 samples.

Results

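The proteasome is the protease that destroys proteins tagged with ubiquitin, and its subunit genes were followed across 6 mouse liver libraries. Members were all genes in the table whose symbol starts with Psm, a letter from a to g and a number, with pseudogenes left out: 49 of 25102 genes. The rule uses the symbol alone, though it was set with earlier results of these data known. The libraries came from male C57BL/6J mice, 2 weeks old when the experiment began, in 2 groups of 3. DEN+CCl4 mice received diethylnitrosamine (DEN, a carcinogen that hepatocytes activate) by 1 intraperitoneal injection of 1 mg/kg, and about 6 weeks later carbon tetrachloride (CCl4, a hepatotoxin) at 0.2 mL/kg, 2 times a week over at most 14 weeks. Control mice are labelled only as controls, with no vehicle named. The labels call the treated livers a hepatocellular carcinoma model and do not say whether the RNA came from tumour, from surrounding liver or from both. Age at collection is not given, and replicates carry only a number, so the spread measured is that between these samples.

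A core particle does the cutting. It is a barrel of alpha subunits (Psma genes), which form the gate, and beta subunits (Psmb genes), of which Psmb5, Psmb6 and Psmb7 hold the active sites. The regulatory particle caps the barrel: its ATPases (Psmc genes) unfold the substrate, and its other subunits (Psmd genes) bind ubiquitin chains and remove them. Cells exposed to interferon gamma, and many leukocytes at rest, replace the active-site subunits by Psmb8, Psmb9 and Psmb10 to form the immunoproteasome, which favours peptides suited to MHC class I. Psme genes encode alternative caps, the activators. When proteasome activity falls short, the transcription factor encoded by Nfe2l1 is known to raise subunit genes together through antioxidant response elements in their promoters.

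Of the 49 members, 45 averaged 1 FPKM or more across the 6 libraries and were tested. FPKM counts fragments per length of transcript and per library total, so levels can be compared between genes. Not tested were Psma8, the alpha subunit of the testis (0.03 to 0.25 FPKM), Psmd5 and Psmd10, which assist assembly of the regulatory particle, and Psmc3ip. The last meets the naming rule but encodes a partner of meiotic recombination and no subunit (0 to 0.23 FPKM).

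One library stood apart. Mitochondrial transcripts took 85% of all FPKM in DEN+CCl4 replicate 3 and 38.1% to 62.1% in the other 5, and the median tested gene read 1.19 FPKM there against 3.43 to 4.46 FPKM elsewhere. Values are therefore also given after median-ratio scaling, which divides each library by its median ratio to the gene-wise geometric mean (factor 0.356 for that library, 1.16 to 1.37 for the others), and without it. The hepatocyte markers fit the labelled tissue: 7 of 8 listed were in the table and tested, with Alb, serum albumin, at 7482 to 24459 FPKM.

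Promoters are shown for the catalytic subunits Psmb5 and Psmb6, for Psmd9, whose groups did not overlap, and for Psmd8, the tested member with the most positive fold change. Each runs 5′ to 3′ on the gene's strand and ends at the RefSeq start (GRCm38.p6) or at the nearest GENCODE M21 exon, and capitals mark a motif match on either strand.
Psmb5, chr14:54618023-54618245, minus strand: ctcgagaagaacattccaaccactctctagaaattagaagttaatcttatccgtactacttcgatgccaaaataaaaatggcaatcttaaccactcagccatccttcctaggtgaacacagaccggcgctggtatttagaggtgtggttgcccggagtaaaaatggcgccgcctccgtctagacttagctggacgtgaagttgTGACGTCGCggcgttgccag
Psmb6, chr11:70525107-70525356, plus strand: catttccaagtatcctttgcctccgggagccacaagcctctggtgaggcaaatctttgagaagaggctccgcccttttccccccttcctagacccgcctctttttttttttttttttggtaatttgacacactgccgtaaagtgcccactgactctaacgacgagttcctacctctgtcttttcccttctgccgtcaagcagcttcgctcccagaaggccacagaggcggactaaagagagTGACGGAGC
Psmd9, chr5:123227940-123228189, plus strand: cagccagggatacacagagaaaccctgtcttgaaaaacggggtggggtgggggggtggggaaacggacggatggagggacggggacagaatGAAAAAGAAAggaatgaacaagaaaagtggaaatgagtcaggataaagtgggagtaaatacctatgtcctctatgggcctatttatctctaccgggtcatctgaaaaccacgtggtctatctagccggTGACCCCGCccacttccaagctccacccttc
Psmd8, chr7:29180702-29180923, minus strand: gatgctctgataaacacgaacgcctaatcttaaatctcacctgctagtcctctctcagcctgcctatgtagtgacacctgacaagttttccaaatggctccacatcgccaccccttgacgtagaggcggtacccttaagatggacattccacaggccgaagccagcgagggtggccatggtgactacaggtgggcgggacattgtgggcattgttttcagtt
In these stretches Psmb5, Psmb6 and Psmd9 each hold TGACNNNGC, the core letters of the antioxidant response element, whose last letter lies 39, 1 and 23 bases before the start. Psmd9 also holds the letters of the interferon-stimulated response element, searched as GAAA, any 2 bases and GAAA. No motif searched is in the Psmd8 stretch. Over the 250 bases before the start, RefSeq promoters were matched and searched for 41 of the 49 members, both strands read. TGACNNNGC was in 5 of them, 12.2%, against 10.2% of all 32851 promoters, the other holders being Psmc6 and Psmd12. CCAAT was in 14 (34.1% against 33.8%) and the interferon-stimulated response element in 3 (7.32% against 2.98%). TTCNNNGAA, the gamma-activated site, which reads the same on both strands, was in 2, Psmb8 and Psmg1 (4.88% against 7.02%). No matches of different motifs overlapped in the stretches shown. A match describes letters, and binding was not measured.

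No proteasome gene passed the test between DEN+CCl4 and control liver. Limma on log2(FPKM + 1) called 0 of the 45 higher and 0 lower (adjusted p at least 0.936, and 0 at an unadjusted p under 0.05), while over all 8528 tested genes it called 0.833% higher and 0.645% lower, with 7.6% at an unadjusted p under 0.05. The median log2 fold change of the members was -0.61, against -0.27 for all tested genes, and 43 of 45 were negative, as were 6341 of all 8528. After median-ratio scaling the medians were -0.20 and 0.01, with 39 members and 4146 of all 8528 genes negative. Without DEN+CCl4 replicate 3 the medians were -0.18 and 0.11, with 37 members and 3343 of 8486 genes negative. The member intervals were wide: the median standard error was 0.70, and the 95% confidence intervals reached from -2.99 to 1.61 on the log2 scale. Moderate changes in either direction lie within them. After scaling and without DEN+CCl4 replicate 3 limma called 0 of all tested genes too, with 468 higher and 446 lower, and 536 and 149, at an unadjusted p under 0.05. Whether a lower reading means fewer cells of a type or less RNA per cell cannot be told apart in whole liver.

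**Figure D1:**
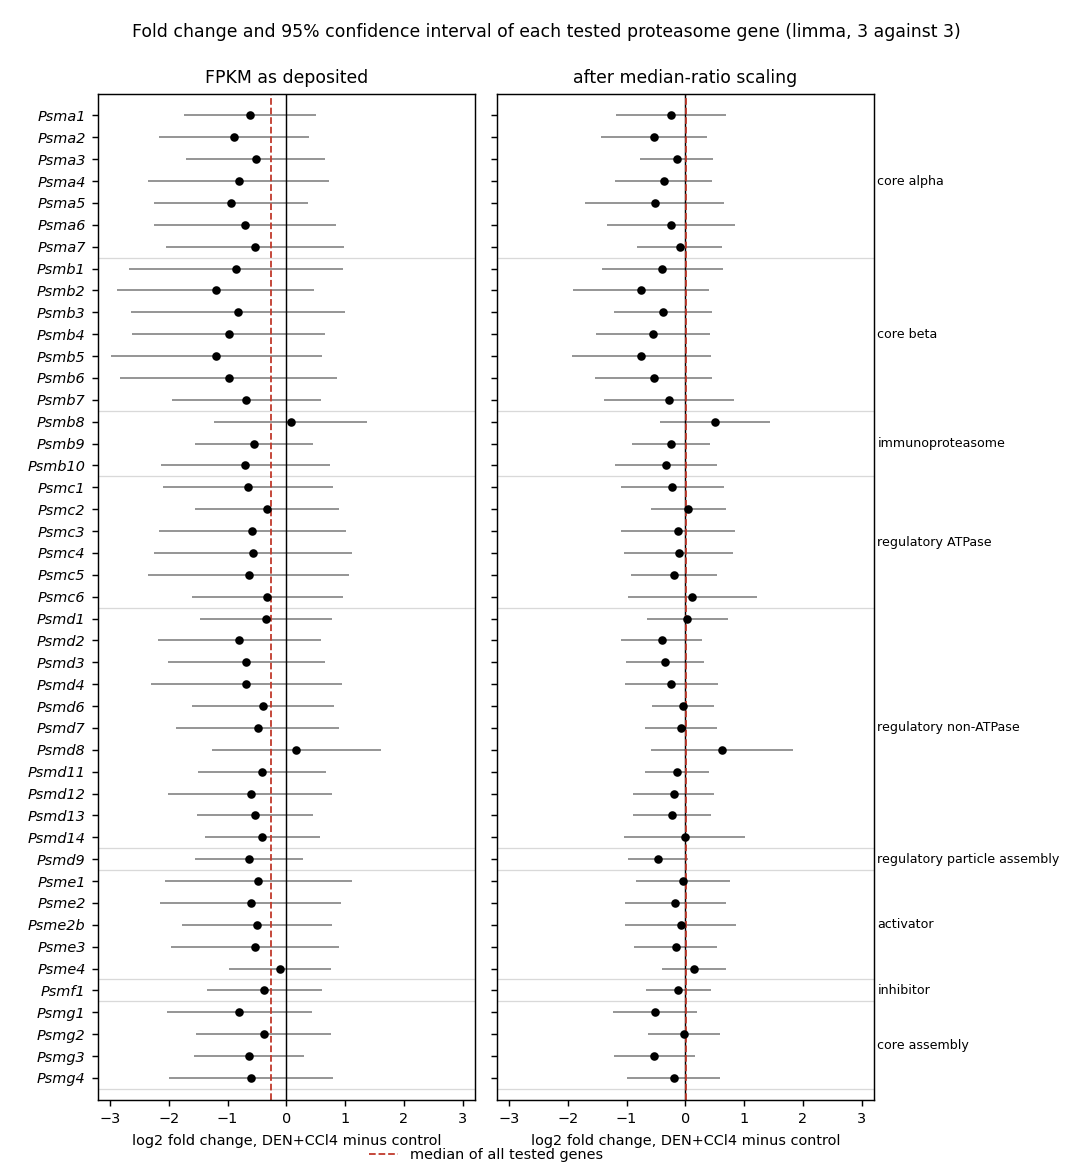
Log2 fold change (DEN+CCl4 minus control, log2(FPKM + 1) scale) of each of the 45 tested proteasome genes with its 95% confidence interval from limma, as deposited on the left and after median-ratio scaling on the right. The dashed line is the median of all tested genes (-0.27 and 0.01), and every interval on the left crosses 0.

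No tested member lay above all controls in all 3 DEN+CCl4 libraries (3.01% of all tested genes did), and 2 of 45 lay below all controls (5.35% of all did). The first of these, Psmc1, an ATPase of the regulatory particle on chromosome 12 (100110154 to 100123405, GRCm38), read 15.32, 9.95 and 14.28 FPKM in control replicates 1, 2 and 3, against 9.85, 8.88 and 5.48 FPKM in the treated replicates, in the same order (as for all genes that follow). Its control replicate 2 and DEN+CCl4 replicate 1 nearly met, and after scaling the groups overlapped (log2 fold change -0.66 ± 0.73, SE, as deposited; limma adjusted p = 0.996). Psmc1 shares 23.6% of its 31-base words with Gm9575 and 17.3% with AC110212.1, so its reads may be split. The second, Psmd9, an assembly chaperone of the regulatory particle on chromosome 5 (123169413 to 123250131), read 2.54, 2.17 and 2.88 FPKM in the controls, against 2.07, 1.85 and 0.31 FPKM in the treated group (-0.64 ± 0.47, limma adjusted p = 0.946). Its groups did not overlap after scaling either. Psmd9 shares 25% of its 31-base words with Gm26745, so its reads may be split too. Psmd5, another of these chaperones and too low to be tested, was the reverse, with 0.34, 0.44 and 0.42 FPKM in the controls, against 0.84, 0.53 and 0.48 FPKM in the treated group. The third chaperone, Psmd10, also called gankyrin and studied as a liver cancer gene, read 1.53, 0.70 and 0.74 FPKM and 0.69, 0.81 and 0.70 FPKM, so its highest value was in a control.

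**Figure D2:**
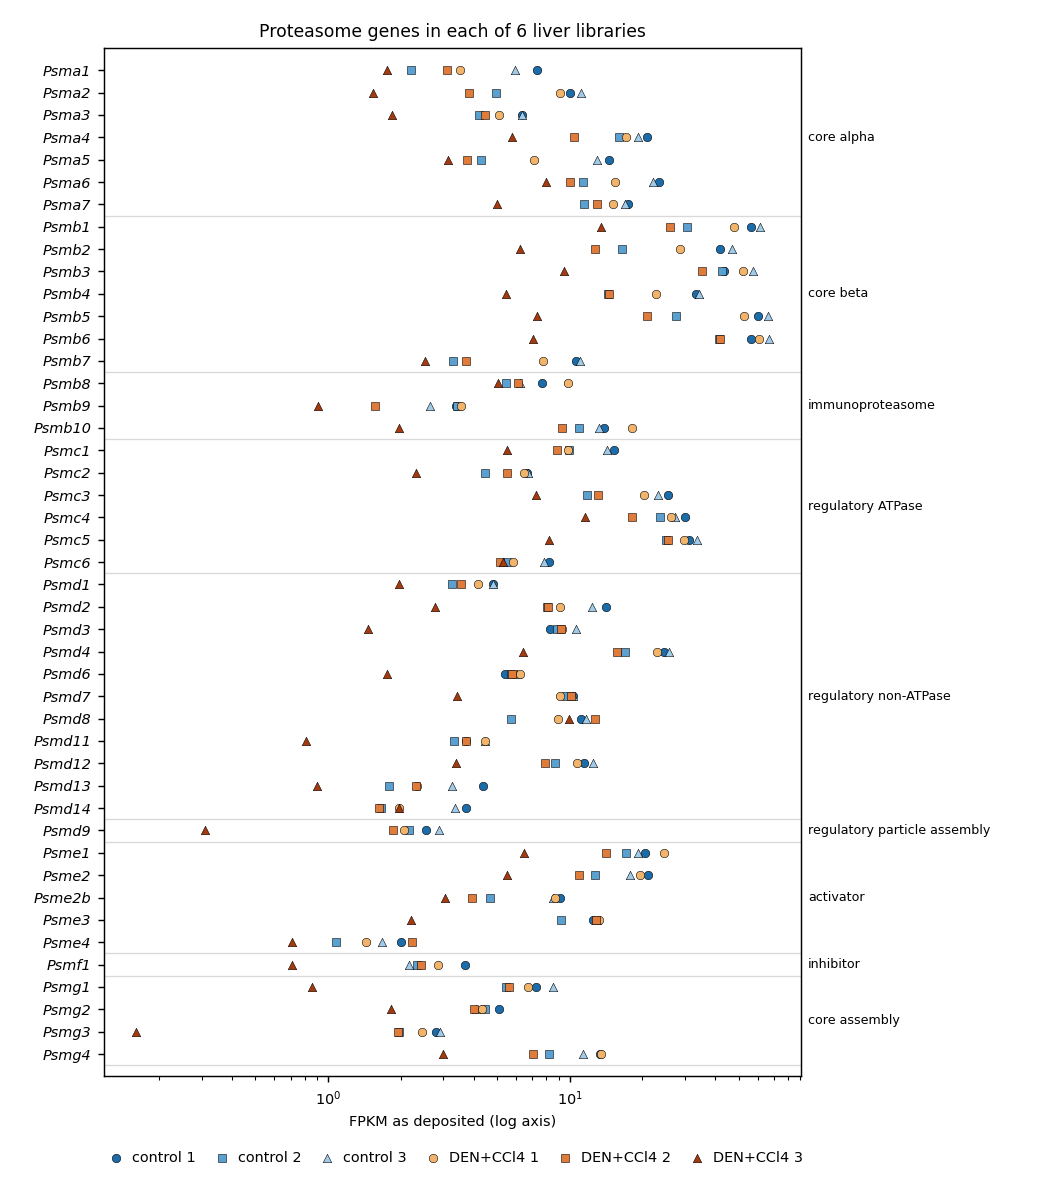
FPKM as deposited (log axis) of the 45 tested proteasome genes, 1 row per gene grouped by role, with 1 symbol per library. DEN+CCl4 replicate 3 is the lowest point in most rows, and control replicate 2 and DEN+CCl4 replicate 2 often lie side by side among the core genes.

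The 14 constitutive core genes read lower than tested genes at large in replicate 2 of each group. Control replicate 2 stood at a median of 48.4% of the mean of the other controls over these genes, under 60% for 9 of 14, whereas the median over all tested genes was 97.4% and 20.6% of them were under 60%. DEN+CCl4 replicate 2 stood at a median of 62.6% of DEN+CCl4 replicate 1 over the core and at 110% over all tested genes. All 14 core genes were below 100% in both contrasts. DEN+CCl4 replicate 1 was close to the controls, with a core median of 92.2% of the control mean (104% over all tested genes). In DEN+CCl4 replicate 3 the core median was 28.5% of the control mean and that of all tested genes 28.4%. The spread between controls was thus of the size of the group difference: the core's median log2 fold change was -0.84 as deposited, -0.38 after scaling and -0.41 without DEN+CCl4 replicate 3, negative for all 14 in each, with 0 called.

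Regulatory particle genes stood closer to 100% in the same contrasts, a difference that was not tested. In control replicate 2 the 6 ATPases had a median of 67.9% of the other controls and the 11 non-ATPase subunits 67.6%. In DEN+CCl4 replicate 2 they stood at 85.2% and 89.4% of replicate 1. Over the 45 tested members the log2 difference of control replicate 2 from the other controls and that of DEN+CCl4 replicate 2 from replicate 1 had Pearson's r of 0.39 and Spearman's rho of 0.36, against 0.35 and 0.41 over all 8528 tested genes. These are correlations across genes, which share libraries and are not independent replicates.

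Transcript length moved with the same contrasts. Tested genes with a known exonic length (8520) were divided by it into 4 bins of 2130. In the shortest bin (up to 1987 bases) the median of control replicate 2 was 70.9% of the other controls, and it was 88.5%, 107% and 122% in the next bins. DEN+CCl4 replicate 2 as a share of replicate 1 went from 84.8% through 106% and 119% to 127%. For DEN+CCl4 replicate 3 against the control mean the bins lay between 27.2% and 29.5%. Core genes are short, with a median exonic length of 2335 bases against 3451 for all tested genes, and 6, 5, 3 and 0 of them fell in the 4 bins, from short to long. All 14 lay below the median of their own bin in both contrasts. Mitochondrial share was 62.1% in control replicate 2, the highest of the controls. The part of length and of mitochondrial share in the core values was not tested.

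**Figure D3:**
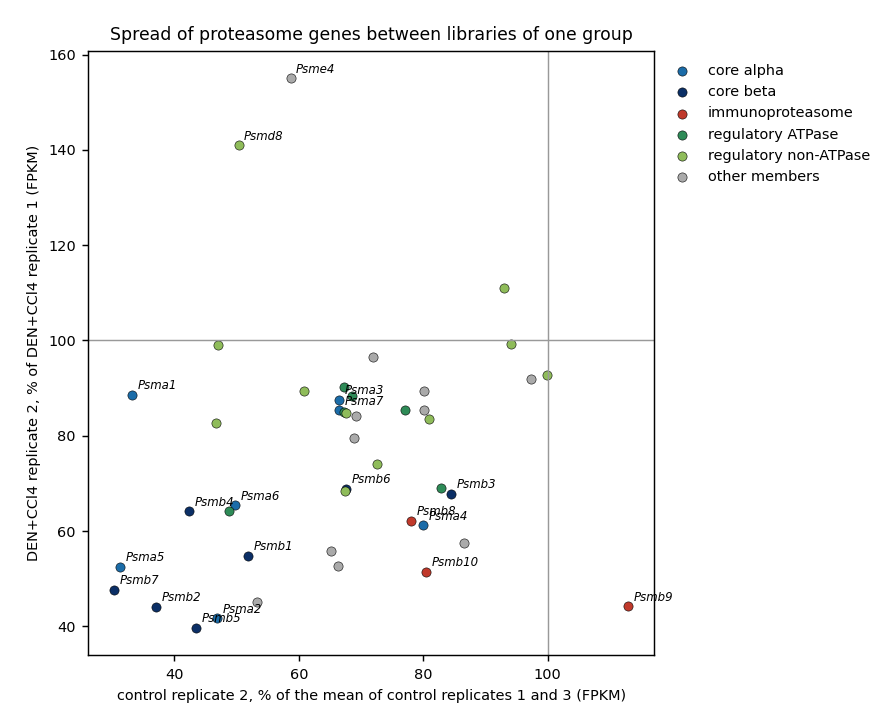
Each point is 1 of the 45 tested proteasome genes, with its FPKM in control replicate 2 as a percentage of the mean of control replicates 1 and 3 (x axis) and in DEN+CCl4 replicate 2 as a percentage of DEN+CCl4 replicate 1 (y axis). Grey lines mark 100%, and the core genes (blue) lie in the lower left, below 100% on both axes.

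Among alpha subunits, Psma6 was the highest by mean, at 23.35, 11.34 and 22.15 FPKM in the controls, against 15.39, 10.07 and 7.99 FPKM in the treated group. The lowest, Psma1, read 7.31, 2.20 and 5.96 FPKM and 3.50, 3.10 and 1.75 FPKM. In both, control replicate 2 lay inside the DEN+CCl4 range. Psma5 had the most negative fold change of the alpha subunits, with 14.55, 4.30 and 12.95 FPKM in the controls, against 7.14, 3.75 and 3.14 FPKM in the treated group (log2 fold change -0.95 ± 0.66, SE; limma adjusted p = 0.936). That library put Psma5 at 31.3% of the other controls. Psma5 shares 46.2% of its 31-base words with the predicted gene Gm8394 and 36.7% with Gm12989, so its reads may be split. Psma3 had the least negative value, -0.52, with 6.36, 4.22 and 6.33 FPKM and 5.10, 4.47 and 1.84 FPKM. Psma2, Psma4 and Psma7 lay between these, from -0.90 to -0.53.

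Beta subunits were the most abundant members. Psmb6, the caspase-like active site, was highest by mean, at 56.08, 41.53 and 66.87 FPKM in the controls, against 60.71, 41.85 and 7.08 FPKM in the treated group (-0.98 ± 0.94). Outside DEN+CCl4 replicate 3 its groups covered about the same range, and without that replicate its fold change was -0.09. It ranked 3rd, 2nd and 1st of the tested members in the controls and 1st, 1st and 9th in DEN+CCl4 replicates 1, 2 and 3. Psmb5, the chymotrypsin-like site and the target of bortezomib, read 60.25, 27.52 and 66.34 FPKM and 52.60, 20.89 and 7.33 FPKM (-1.20 ± 0.91, limma adjusted p = 0.966; -0.75 after scaling). Replicate 2 of each group was below the first replicate by more than the first replicates differed from each other. Psmb5 shares 59.8% of its words with the predicted gene Gm3375. Psmb2, a structural subunit, had the same fold change (-1.20 ± 0.85, limma adjusted p = 0.943), with 41.87, 16.48 and 46.93 FPKM against 28.73, 12.68 and 6.21 FPKM. Psmb7, the trypsin-like site, was the lowest beta subunit, at 10.64, 3.29 and 11.05 FPKM and 7.78, 3.71 and 2.51 FPKM (-0.68 ± 0.64). Its control replicate 2, at 30.3% of the other controls, lay below DEN+CCl4 replicates 1 and 2. Psmb1, Psmb3 and Psmb4, structural subunits, had log2 fold changes of -0.85, -0.83 and -0.98.

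Core subunits are made for a particle with equal numbers of each, but their transcripts spanned a wide range of FPKM in each library. The highest over the lowest of the 14 was 9.47, 19.4 and 11.2 in controls and 17.3, 13.5 and 8.77 in DEN+CCl4 liver. The summed FPKM of the 14 was 402, 231 and 439 in controls and 345, 204 and 78.6 in DEN+CCl4 liver, with control replicate 2 between DEN+CCl4 replicates 1 and 2.

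**Figure D4:**
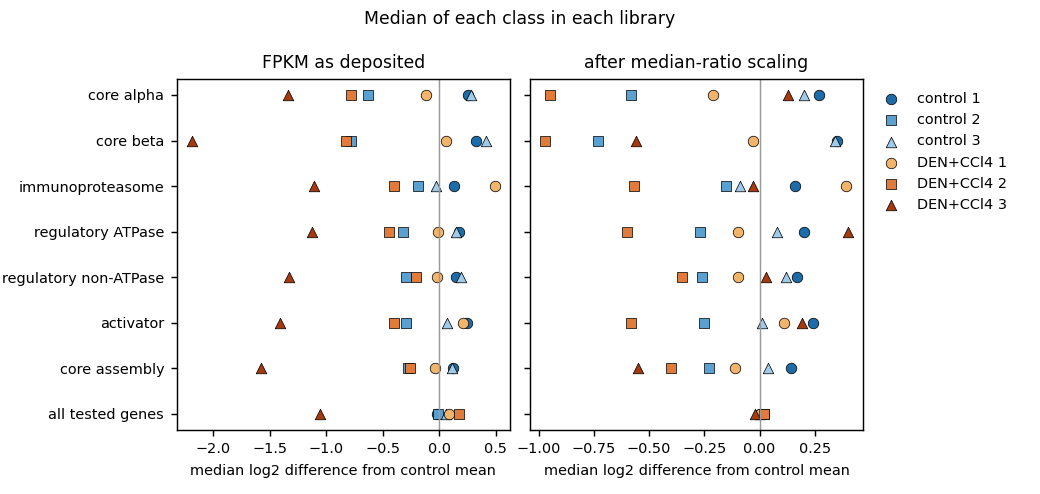
Median over each class of proteasome genes of the log2 difference from the control mean, 1 symbol per library, as deposited (left) and after median-ratio scaling (right). After scaling, DEN+CCl4 replicate 2 and control replicate 2 are the lowest libraries in both core classes (-0.95 and -0.58 in core alpha, -0.97 and -0.73 in core beta).

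In the regulatory particle 16 of 17 tested subunits had a negative fold change, beside 6341 of all 8528 tested genes. After scaling these counts were 13 and 4146. Psmc5 was the highest ATPase, at 31.06, 24.95 and 33.62 FPKM in the controls, against 29.82, 25.51 and 8.22 FPKM in the treated group. Psmc2 was the lowest, at 6.63, 4.48 and 6.69 FPKM and 6.5, 5.52 and 2.31 FPKM. Both overlapped fully outside DEN+CCl4 replicate 3. Psmc3 and Psmc4 had log2 fold changes of -0.58 and -0.57. Psmc6 shared the smallest ATPase difference with Psmc2 (-0.33 each). It read 8.25, 5.50 and 7.80 FPKM and 5.85, 5.17 and 5.32 FPKM, and after scaling 4.58, 3.77 and 14.9 in the treated group, where DEN+CCl4 replicate 3 was the highest library.

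Psmd4, a ubiquitin receptor, led the non-ATPase subunits with 24.54, 16.93 and 25.66 FPKM in the controls, against 22.98, 15.74 and 6.40 FPKM in the treated group. Psmd2, a scaffold subunit of the base, had the most negative value of this class (-0.80 ± 0.70), with 14.20, 8.08 and 12.38 FPKM and 9.13, 8.16 and 2.76 FPKM. It shares 29.3% of its words with Gm5422. Psmd14, the enzyme that cuts ubiquitin chains off the substrate, was lowest, at 3.72, 1.65 and 3.34 FPKM and 1.97, 1.63 and 1.97 FPKM. Its control replicate 2 matched the treated livers. Psmd8, a lid subunit on chromosome 7 (29174188 to 29180701), ran against the rest, with 11.12, 5.74 and 11.71 FPKM in the controls, against 8.96, 12.67 and 9.93 FPKM in the treated group (0.17 ± 0.73, limma adjusted p = 0.996; 0.62 after scaling). In DEN+CCl4 replicate 3 it stood at 104% of its control mean, where the median member stood at 30.1%. Its rank by FPKM among tested members there was 3rd, against 14th to 26th in the other 5 libraries. Psmd1, Psmd3, Psmd6, Psmd7, Psmd11, Psmd12 and Psmd13 had log2 fold changes from -0.68 to -0.35.

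Within DEN+CCl4 replicate 3 some members did not scale down with the rest, but a smaller share than among all tested genes. After median-ratio scaling Psmd8 stood at 351% of its control mean, Psmb8 at 263%, Psmc6 at 249% and Psmd14 at 228%. These 4 of 45 above 200% (8.89%) compare with 18.4% of all tested genes. Below 50% were Psmg3 at 21%, Psmg1 at 41%, Psmd9 at 41.2%, Psmb6 at 43.5% and Psmb5 at 48.2%, so 5 members (11.1%) against 22.8% of all.

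The immunoproteasome subunits were detected in every library. Psmb8, on chromosome 17 (34197721 to 34201454), read 7.66, 5.43 and 6.25 FPKM in the controls, against 9.83, 6.11 and 5.06 FPKM in the treated group (0.07 ± 0.66, limma adjusted p = 0.998). It was 1 of 2 tested members with a positive fold change, which was 0.50 after scaling. Psmb9 lies on the same chromosome (34181987 to 34187764) and was the lowest of the 3, at 3.39, 3.41 and 2.63 FPKM and 3.55, 1.57 and 0.91 FPKM (-0.55 ± 0.51). Psmb10 was the highest, at 13.86, 10.89 and 13.18 FPKM and 18.08, 9.32 and 1.97 FPKM (-0.70 ± 0.73). As deposited, DEN+CCl4 replicate 1 was the highest library for all 3 genes. After scaling that held for Psmb10, while Psmb8 was highest in DEN+CCl4 replicate 3 and Psmb9 in control replicate 2. The groups overlapped for each gene on both scales. In control replicate 2 Psmb8, Psmb9 and Psmb10 stood at 78.1%, 113% and 80.5% of the other controls, and in DEN+CCl4 replicate 2 at 62.2%, 44.2% and 51.5% of replicate 1.

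Ratios were taken within each library on the log2(FPKM + 1) scale, where the added 1 pulls the ratios of low genes and low libraries toward 0. Psmb8 over Psmb5 was -2.82, -2.15 and -3.22 in controls and -2.31, -1.62 and -0.46 in DEN+CCl4 liver. The mean difference was 1.27 (exact two-sided permutation test, p = 0.2; adjusted p = 1 over the 5 ratios), and 0.76 without DEN+CCl4 replicate 3. With 3 against 3 libraries the exact test cannot go below 0.1. In DEN+CCl4 replicates 2 and 3 the ratio was above all controls, and in replicate 1 it fell between control replicates 1 and 2. Psmb5 shares 59.8% of its 31-base words with Gm3375 and Psmb8 shares 13% with Gm20496, so the reads of both may be split. Psmb9 over Psmb6 differed by 0.43 (exact permutation p = 0.7), by 0.22 with a pseudocount of 0.1, and turned to -0.18 without DEN+CCl4 replicate 3. Psmb10 over Psmb7 differed by -0.02 (exact permutation p = 1; -0.05 with a pseudocount of 0.1), with its highest ratio in control replicate 2 (1.47), where Psmb7 was low. It turned to 0.38 without control replicate 2 and to 0.44 without DEN+CCl4 replicate 3. The 3 immunoproteasome genes made up 16.4%, 21.4% and 13.3% of the summed FPKM of the 6 catalytic subunits in controls and 20.6%, 20.4% and 31.9% in DEN+CCl4 liver. Control replicate 2 thus exceeded 2 of the treated libraries.

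**Figure D5:**
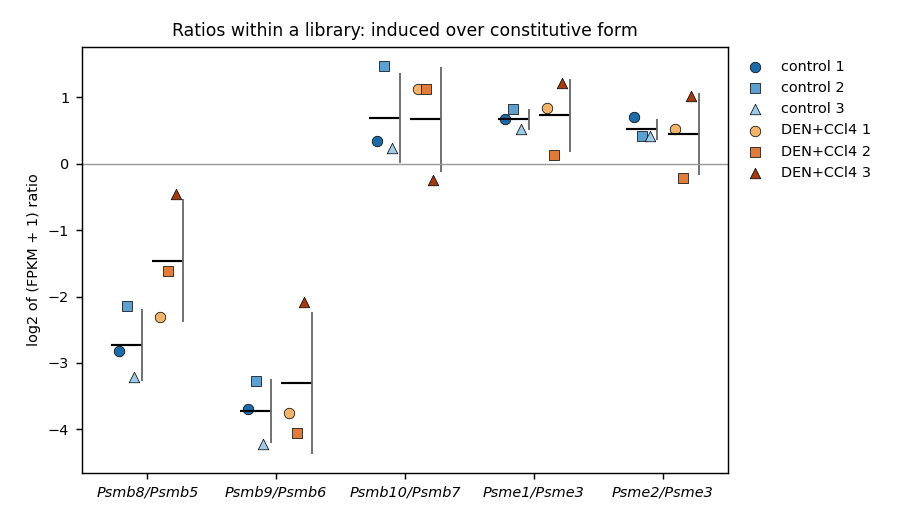
Log2 ratio, within each library, of an interferon-induced subunit or activator to its constitutive counterpart (FPKM + 1), for 5 pairs and 6 libraries. Horizontal lines are group means and vertical lines 1 SD (n = 3); Psmb8/Psmb5 has the largest difference (1.27), and the groups of every pair overlap.

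Leukocytes carry immunoproteasome transcripts, so their markers are given beside these values. The table held 12 listed pan-leukocyte, T and NK cell genes, of which 2 were tested and 0 called, none was at 0 in every library, and their summed level was 3.49 to 4.44 FPKM in controls and 5.71 to 7.54 FPKM in DEN+CCl4 liver. Of the 12, 4 lay above all controls in all 3 treated libraries (Nkg7, Cd2, Cd8a and Cd3g), named after their values were seen, and 8 overlapped. Of all tested genes 3.01% lay above all controls. That share does not cover Cd2, Cd8a and Cd3g, which averaged 0.762, 0.403 and 0.275 FPKM, too low to be tested. Cd8a, a coreceptor of cytotoxic T cells, read 0.04 to 0.18 FPKM in controls and 0.49 to 0.91 FPKM in DEN+CCl4 liver. Ptprc, the pan-leukocyte antigen CD45, read 0.11 to 0.18 FPKM in controls and 0.11 to 0.27 FPKM in DEN+CCl4 liver. Neutrophil genes summed to 1.89 to 5.66 FPKM and 5.53 to 22.6 FPKM, and 1 of the 2 tested was called, S100a8, a calcium-binding alarmin (log2 fold change 1.63, limma adjusted p = 0.0336). S100a8 read 0.76, 0.42 and 0.34 FPKM in the controls, against 3.19, 1.38 and 8.96 FPKM in the treated group. It was not called after median-ratio scaling (limma adjusted p at least 0.453 in this list), nor without DEN+CCl4 replicate 3. Macrophage, monocyte and dendritic cell genes summed to 75.1 to 188 FPKM and 57.6 to 115 FPKM, and B and plasma cell genes to 4.75 to 6.05 FPKM and 1.71 to 8 FPKM. Sums were 10.2 to 18.8 and 7.09 to 22.2 FPKM for endothelial genes, 6.49 to 10.4 and 10.6 to 25.1 FPKM for stellate cell genes, and 9.2 to 16.4 and 14.5 to 34 FPKM for cholangiocyte genes. Limma called no gene of these 5 lists or of the hepatocyte list, although 2 stellate cell genes had an unadjusted p under 0.05. The 7 tested hepatocyte genes had a median log2 fold change of -0.91, with 6 negative. After scaling it was -0.43 with 4 negative, and without DEN+CCl4 replicate 3 it was -0.27 with 5 negative. Of these 7 genes 1, Cps1, lay below all controls, beside 5.35% of all tested genes. The part of any cell type in the subunit levels was not tested.

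The activators Psme1 and Psme2, which form the interferon-induced PA28 ring, and Psme3, the nuclear form, were detected in every library. Psme1 stood at 147% to 187% of Psme3 in controls and at 110% to 293% in DEN+CCl4 liver. For Psme2 the ranges were 137% to 168% and 85.6% to 249%. Psme1 read 20.56, 17.17 and 19.09 FPKM in the controls, against 24.50, 14.08 and 6.48 FPKM in the treated group (-0.48 ± 0.81). Psme2 read 21.11, 12.68 and 17.79 FPKM and 19.61, 10.97 and 5.50 FPKM (-0.61 ± 0.78). It and its copy Psme2b share 33.5% and 76.5% of their words, so the division of reads between them is uncertain. Psme2b was at 9.10, 4.69 and 8.53 FPKM and 8.71, 3.93 and 3.06 FPKM, with replicate 2 of each group low in both genes. Psme3 was at 12.54, 9.2 and 13.03 FPKM and 13.27, 12.81 and 2.21 FPKM (-0.54 ± 0.73), so DEN+CCl4 replicates 1 and 2 lay within or just above the control range. Psme4, the activator PA200, was the lowest, at 2.01, 1.08 and 1.67 FPKM and 1.43, 2.22 and 0.71 FPKM (-0.11 ± 0.44). The ratios of Psme1 and of Psme2 to Psme3 differed by 0.05 and -0.07 (exact permutation p = 0.9 for each; 0.13 and -0.01 with a pseudocount of 0.1), and both changed sign when single libraries were left out.

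Other members inhibit the core particle or help to build it. Psmf1, the inhibitor, read 3.68, 2.34 and 2.16 FPKM in the controls, against 2.85, 2.43 and 0.71 FPKM in the treated group (-0.38 ± 0.50). Of the core assembly chaperones, Psmg4 was highest, at 13.41, 8.21 and 11.37 FPKM and 13.43, 7.08 and 3 FPKM. Psmg3 was lowest, at 2.81, 1.97 and 2.91 FPKM and 2.44, 1.94 and 0.16 FPKM. Psmg1 had the most negative value of these (-0.80 ± 0.62), with 7.23, 5.44 and 8.50 FPKM and 6.69, 5.63 and 0.86 FPKM, and Psmg2 the least (-0.39), with 5.09, 4.47 and 4.09 FPKM and 4.35, 4 and 1.82 FPKM. Outside DEN+CCl4 replicate 3 the groups overlapped for all 4.

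Genes that work with the proteasome showed the same library pattern in part. Of the 26 ubiquitin-proteasome partners found, 22 were tested, and limma called 0 higher and 0 lower, with 0 at an unadjusted p under 0.05. Their median log2 fold change was -0.33 (-0.05 after scaling), beside -0.27 (0.01) for all genes. Ubb, a polyubiquitin gene, read 404, 129 and 374 FPKM in the controls, against 273, 153 and 73.2 FPKM in the treated group (log2 fold change -0.88), low in the replicates in which the core was low. Pomp, the chaperone that matures the core, was chosen after its values were seen, as were Sem1 and Nfe2l1. It stood at 24% of the other controls in control replicate 2 and at 30.1% of DEN+CCl4 replicate 1 in replicate 2, with 6.76, 1.45 and 5.32 FPKM and 5.08, 1.53 and 1.44 FPKM. Sem1, a small lid subunit outside the naming rule, stood at 56.6% and 44.6%. Nfe2l1 read 1.16, 1.44 and 0.59 FPKM in the controls, against 3.94, 1.86 and 1.85 FPKM in the treated group, higher in all 3 (log2 fold change 0.75 ± 0.45, SE; limma adjusted p = 0.818). It was 1 of the 22 tested partners to lie above all controls (3.01% of all tested genes did). Another 1, Zfand5, lay below all controls (5.35% of all did), as did Ngly1, too low to be tested. A link between Nfe2l1 and the subunit levels was not tested.

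Antigen processing and interferon partners numbered 22 in the table and 18 tested, with 0 called higher, 0 lower and 1 higher at an unadjusted p under 0.05 (Cxcl9, an interferon-induced chemokine, limma adjusted p = 0.539). Cxcl9 read 0.89, 1.37 and 1.28 FPKM in the controls, against 1.30, 2.74 and 9.75 FPKM in the treated group. Its groups overlapped, and DEN+CCl4 replicate 3 was its highest library. The median log2 fold change of the list was 0.00 (0.37 after scaling). The highest were B2m, the MHC class I light chain, and the heavy chains H2-K1 and H2-D1. B2m read 2256, 1363 and 1976 FPKM in the controls, against 2001, 1846 and 747 FPKM in the treated group (-0.38). H2-K1 read 333, 269 and 330 FPKM and 368, 306 and 105 FPKM (-0.44), and H2-D1 173, 92 and 144 FPKM and 175, 181 and 78.9 FPKM (0.04). Tap1, the peptide transporter gene, read 1.5, 2.74 and 2.33 FPKM and 1.5, 2.97 and 2.84 FPKM. Over this list control replicate 2 had a median of 113% of the other controls, with 7 of 18 genes under 100%.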

How the data were processed

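Poly(A) RNA of 3 control and 3 DEN+CCl4 livers was sequenced, and groups follow the labels. The authors deposited FPKM values, 1 column for each library (file headers). The submitters' processing notes name HISAT, StringTie and the build GRCm38. Versions, annotation release and strand setting: not given in the sources used here. The table holds no counts, so depth is unknown. FPKM divides by a library's total, so a high mitochondrial share lowers all other genes.

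The 8528 genes averaging 1 FPKM or more were tested with limma 3.58.1 (R 4.3.3, intensity trend, two-sided, no covariates) on log2(FPKM + 1) and adjusted by Benjamini and Hochberg over all of them at 0.05. Fold changes on this scale understate changes of low genes. The 5 within-library ratios had an exact two-sided permutation test. Tested on simulated data for DEN+CCl4 against control with 8528 genes, 30% of the genes changed 4-fold and 71% of those changed 16-fold were recovered, with 5 false calls. The simulation drew the noise of each gene independently, with the same spread in every library. It held no library shifted across most genes, as DEN+CCl4 replicate 3 was, so these rates need not hold for the real data. Alternatives were a pseudocount of 0.1, no filter, median-ratio scaling, rescaling without mitochondrial genes, the replicate number as a block and leaving out each library.

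Coordinates and exonic lengths are from GENCODE M21 (GRCm38), and sequence sharing counts 31-base words. Python 3.11.15, numpy 2.4.6, pandas 2.3.3 and matplotlib 3.10.9 did the rest. The members and lists were chosen with earlier results of these data known. Every member is accounted for, and values per library are given for the immunoproteasome genes and their partners, Psme1 to Psme4, the highest and lowest members of each class, and those with the most positive and most negative fold change. Of each partner list the called genes and the 3 highest are given, except that some genes this names are not reported here.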

Additional observations from a re-analysis of the deposited data

How the results depend on the processing

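Limma called 0 proteasome genes in either direction under all 17 alternatives. Counts over all tested genes, 71 higher and 55 lower as reported, were 6 and 3 with a pseudocount of 0.1, and 0 and 0 with no filter (540 and 568 at an unadjusted p under 0.05), with median-ratio scaling (468 and 446) and when rescaled without mitochondrial genes (389 and 212). Leaving out 1 library gave 0 to 120 higher and 0 to 272 lower, lowest without DEN+CCl4 replicate 3 (536 and 149 at an unadjusted p under 0.05) and highest without DEN+CCl4 replicate 1. With median-ratio scaling as well it gave 302 higher and 366 lower when DEN+CCl4 replicate 1 was the one removed, and 0 and 0 without any other (188 to 362 and 168 to 365 at an unadjusted p under 0.05). That setting also called Zfand2a (1 ubiquitin-proteasome partner) and Ifngr1 (1 interferon partner) higher, each 0 as reported. The members' median log2 fold change ranged from -0.90 to -0.18 as libraries were left out, and from -0.34 to 0.00 with scaling (-0.07 without control replicate 1, 0.00 without DEN+CCl4 replicate 2).

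Differences of log2 ratios turned sign without single libraries. Psmb9 over Psmb6 ranged from -0.18 to 0.81, Psmb10 over Psmb7 from -0.25 to 0.44, Psme1 over Psme3 from -0.19 to 0.35 and Psme2 over Psme3 from -0.36 to 0.26, while Psmb8 over Psmb5 stayed positive (0.76 to 1.69). The cause was not tested. The labels do not say whether replicate numbers pair the libraries. Deviations from the group means correlated at 0.0716, 0.416 and -0.146 between same-numbered libraries and at -0.372 to 0.228 between the others. The value for replicate 2 was the largest. With 3 libraries in each group these values cannot decide whether the numbers pair them. A fit with the replicate number as a block called 62 genes higher and 32 lower and 0 members. With a pseudocount of 0.1 the difference for Psmb9 over Psmb6 was 0.22. Depth is unknown, so what it limits cannot be given.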
